A study of Mus musculus with 4 samples.

Results

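B2 elements are short interspersed repeats of rodents, and the sites described here are candidate A-to-I editing positions in B2 copies. The deposited site table placed them in 3' UTRs, in the piece just downstream of genes, or farther out on either side of a gene (3' distal and 5' distal). The sites were chosen by their read counts and rates: besides the repeat family and the region, a site had to show 3 altered reads or more out of a depth of 5 or more, at a rate from 0.05 to 0.95, in at least 1 of 4 libraries. The editing rate is the number of altered reads over all reads at the site in 1 library. This choice gave 788 sites of the 24200 that passed in any library (3.26%), or of the 20060 B2 sites listed in these regions at any depth. The sites lay in 481 repeats and carried 399 gene names.

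The libraries came from cultured lung endothelial cells (ECs) of 2 male C57/BL6 mice, aged 2 weeks and from independent litters, of an inducible ADAR1 knockout (i-KO), which the labels call EC-specific. One culture of each mouse was treated with 4-OH-Tamoxifen (TM), which switches on Cre and deletes the floxed part of the ADAR1 gene, and the other was left untreated (CON). RNA depleted of ribosomal RNA was sequenced, with 1 library per culture (CON and TM of mouse EC1, CON and TM of mouse EC2), so that n = 2 per group and each mouse was its own pair. CON and TM cells both carried the floxed alleles and the inducible Cre, whose promoter is not given in the sources used here, and TM-treated cells without floxed ADAR1 were not analysed here, so that the drug and the deletion cannot be told apart.

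ADAR1 is the main enzyme that turns adenosine into inosine in double-stranded RNA, and inosine is read as guanosine in sequencing. B2 copies descend from tRNA genes and are carried along in the transcripts of many genes, most often in introns and 3' UTRs. When a transcript holds copies in opposite orientations, they can fold back on each other into a duplex that ADAR1 edits at many adenosines. Unedited duplexes of this kind can be bound by the RNA sensor MDA-5, the product of Ifih1.

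The sequences of 6 of the 15 copies with the most sites, 3 pairs in which both copies lie in a transcript of 1 gene and are 85.1% to 88.8% identical, show such inverted pairs. Of the other 9 copies 4 were not in a GENCODE exon, and those of Psma3 and Rwdd2b were 76.8% and 69.4% identical to an inverted partner and those named for Sptssa 81.9% and 84.4%. The inverted partner of the Tmem69 copy lies almost wholly outside GENCODE exons, so that its sequence could not be compared. In each line below a stretch of 25 bases is printed 5' to 3' on the strand of the gene, from the transcript sequences of GENCODE vM21 on mm10 (GRCm38), with the adenosines of the chosen sites in capitals. The first pair is from Tmem245, a gene for a membrane protein on the minus strand, with the stretch of the copy that held the most sites at chr4:56870260-56870284 and the facing stretch of its inverted partner at chr4:56875709-56875733.
Tmem245 B2_Mm1t: tAttActatAtgtAAgtAcacggtA
Tmem245 B2_Mm1a: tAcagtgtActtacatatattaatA
Of these 25 positions 23 were complementary, and over the 187 aligned bases of the copies 166 (88.8%) were identical once one was turned around. The copies were 5377 bases apart. The first stretch held 7 chosen sites and the second held 3.

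The second pair is from the plus-strand gene Rnf168, a ubiquitin ligase that marks chromatin at DNA breaks, at chr16:32300224-32300248 and chr16:32299929-32299953, with copies 242 bases apart.
Rnf168 B2_Mm1t: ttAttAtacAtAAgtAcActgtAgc
Rnf168 B2_Mm2: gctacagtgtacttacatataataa
Here too 23 of the 25 positions were complementary, and 126 of 148 aligned bases (85.1%) were identical. The first stretch held 8 chosen sites and the facing one held 0, while another stretch of the same partner copy, at chr16:32299838-32299862 and facing chr16:32300315-32300339, held 8 sites against 2.
Rnf168 B2_Mm2, other end: AAggtcgcaAgttcAAAtcccAgcA
Rnf168 B2_Mm1t, other end: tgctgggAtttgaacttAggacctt
The last pair is from the plus-strand gene Jmjd4, a lysyl hydroxylase that acts on a translation release factor, at chr11:59456255-59456279 and chr11:59458308-59458332. Its copies were 1989 bases apart.
Jmjd4 B2_Mm2, first copy: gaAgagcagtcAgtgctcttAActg
Jmjd4 B2_Mm2, second copy: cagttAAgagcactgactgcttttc
Of its 25 positions 24 were complementary, and 131 of 150 aligned bases (87.3%) were identical. All 6 copies of these 3 pairs lie in annotated 3' UTRs of GENCODE vM21, although the site table placed the Tmem245 copies in the 3' distal and the downstream region.

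Few sites were read deeply in every library. In EC1 305 sites passed in CON and 217 in TM, and in EC2 414 in CON and 342 in TM, which was 2.55%, 2.29%, 3.89% and 2.80% of all passing sites of those libraries. Their median depth was 17, 15, 19 and 17 reads. Of the 788 sites 494 passed in 1 library only and 63 in all 4. Both CON libraries shared 172 sites (56.4% of those of EC1 CON and 41.5% of those of EC2 CON), and both TM libraries shared 107 (49.3% of EC1 TM and 31.3% of EC2 TM). A library lists a site only where it has at least 1 altered read, and elsewhere the deposited rate is 0 with no depth given. Listed in this way were 571 sites in CON and 501 in TM of EC1, and 632 and 616 in EC2, with 322 listed in all 4. Many sites lay at the edge of the criteria. For 288 (36.5%) the largest altered count in a passing library was 3, and 825 sites outside the set met every other criterion with 2 altered reads. The largest passing rates ran from 0.0506 to 0.947, with 13 under 0.06, while 12 sites left out had a rate of 0.04 to 0.05 and 286 a rate above 0.95.

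The largest groups were those that the site table called distal. There were 279 sites in 3' distal and 266 in 5' distal regions, 147 in 3' UTRs and 96 downstream. The downstream piece is 1000 bases long and each distal piece 49000 bases, whereas the 3' UTRs with a site spanned 531 to 7599 bases (median 2116), so that the regions differ in how much sequence they offer. By repeat name, 211 sites were in B2_Mm1a, 203 in B2_Mm2, 151 in B2_Mm1t, 147 in B3 and 76 in B3A, the last pair being the older branches of the family. The repeats had a median length of 188 bases. In 264 repeats (414 sites) the copy ran against the strand of the named gene, and in 217 (374 sites) it ran along it. Most repeats held a lone site, 355 of 481 (73.8%), whereas 28 repeats held 4 or more and together 219 sites (27.8%).

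The rates themselves chose the sites, so their levels over all 4 libraries are given as a description. Over the 788 sites, with a rate of 0 where a library lists none, the mean rate was 0.246 in CON and 0.205 in TM of EC1, and 0.304 in CON and 0.242 in TM of EC2. Both TM means lay under both CON means. In 3' UTRs the means were 0.194, 0.0998, 0.289 and 0.126 in the same order, and in the downstream piece 0.165, 0.0695, 0.196 and 0.114. In 3' distal regions they were 0.273, 0.241, 0.341 and 0.279, and in 5' distal regions 0.277, 0.274, 0.312 and 0.314. The gap between CON and TM was thus wider in and next to 3' UTRs than at 5' distal sites when a rate of 0 stands for a missing entry. Among repeat names it was widest in B2_Mm2, with 0.241 in CON and 0.154 in TM of EC1, and 0.303 in CON and 0.193 in TM of EC2. In B2_Mm1a the values were 0.274, 0.294, 0.328 and 0.316. B2_Mm1t had 0.287, 0.244, 0.314 and 0.266. B3 had 0.210, 0.144, 0.277 and 0.203, and B3A had 0.172, 0.130, 0.272 and 0.196. TM was lower than CON in both mice for each of these names but B2_Mm1a, whose mice differed in sign.

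To read the difference on libraries that had no part in the choice, sites that passed in 1 mouse were read in the other. For the 607 sites chosen in EC2 the mean rate in EC1 was 0.239 in CON and 0.185 in TM, and for the 427 sites chosen in EC1 the EC2 means were 0.295 in CON and 0.230 in TM. The TM minus CON differences were -0.0544 and -0.0649, with a mean of -0.0596 ± 0.00744 (SD, n = 2 mice). An exact two-sided sign permutation over the mice gave p = 0.5, which is the smallest value that n = 2 pairs allow, so that no comparison of this kind could pass 0.05. Among sites that both libraries list with a depth of 5 or more, the rate was higher in CON at 169 of 234 and lower at 58 in EC1, and higher at 185 of 243 and lower at 51 in EC2. The mean differences at these sites were -0.0769 and -0.110, a mean of -0.0933. With each repeat given the same weight the mean over the mice was -0.0248 ± 0.00154 (SD, n = 2), less than the -0.0596 above, since repeats with many sites then count no more than lone sites.

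The difference followed the regions in the other mouse as well. In 3' UTRs it was -0.0971 in EC1 (133 sites) and -0.157 in EC2 (81 sites). Downstream sites gave -0.0810 and -0.0830, and 3' distal sites gave -0.0547 and -0.0771. At 5' distal sites it was -0.0144 in EC1 and 0.0118 in EC2, so that the mice differed in sign there. At sites that both libraries list with a depth of 5 or more, 5' distal sites had -0.0787 in EC1 (higher in CON at 36 of 54) and -0.0411 in EC2 (36 of 60), beside -0.0852 and -0.171 in 3' UTRs. With the missing entries alone left out, at any depth, the 5' distal values were -0.0356 (91 sites) and -0.0247 (87 sites), so that TM was then lower in both mice. Either restriction keeps only sites with an altered read in both libraries. A site read in a library without altered reads is thus left out along with sites not read at all. Between 3' UTRs with downstream pieces and the distal regions the difference of differences was -0.0563 in EC1 and -0.0912 in EC2 (exact p = 0.5, the smallest possible for n = 2), and only -0.0169 and -0.0817 at sites listed in both libraries. By repeat name the EC1 and EC2 values were -0.102 and -0.0828 for B2_Mm2, -0.0463 and -0.114 for B2_Mm1t, -0.0734 and -0.0630 for B3, -0.0356 and -0.0755 for B3A, and -0.00739 and -0.0106 for B2_Mm1a. B2_Mm2 and B2_Mm1a thus differed by -0.0946 in EC1 and -0.0722 in EC2 (exact p = 0.5). Over the B2_Mm1a sites listed in both libraries with a depth of 5 or more, 34 in EC1 and 45 in EC2, the difference was -0.0964 and -0.0715, and B2_Mm2 and B2_Mm1a then differed by -0.0213 and -0.0589. With missing entries alone left out, at any depth, B2_Mm1a had -0.0835 (72 sites) and -0.0415 (65 sites). B2_Mm2 then had -0.0887 (72 sites) and -0.138 (81 sites), so that the names were close in EC1 but not in EC2.

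**Figure D1:**
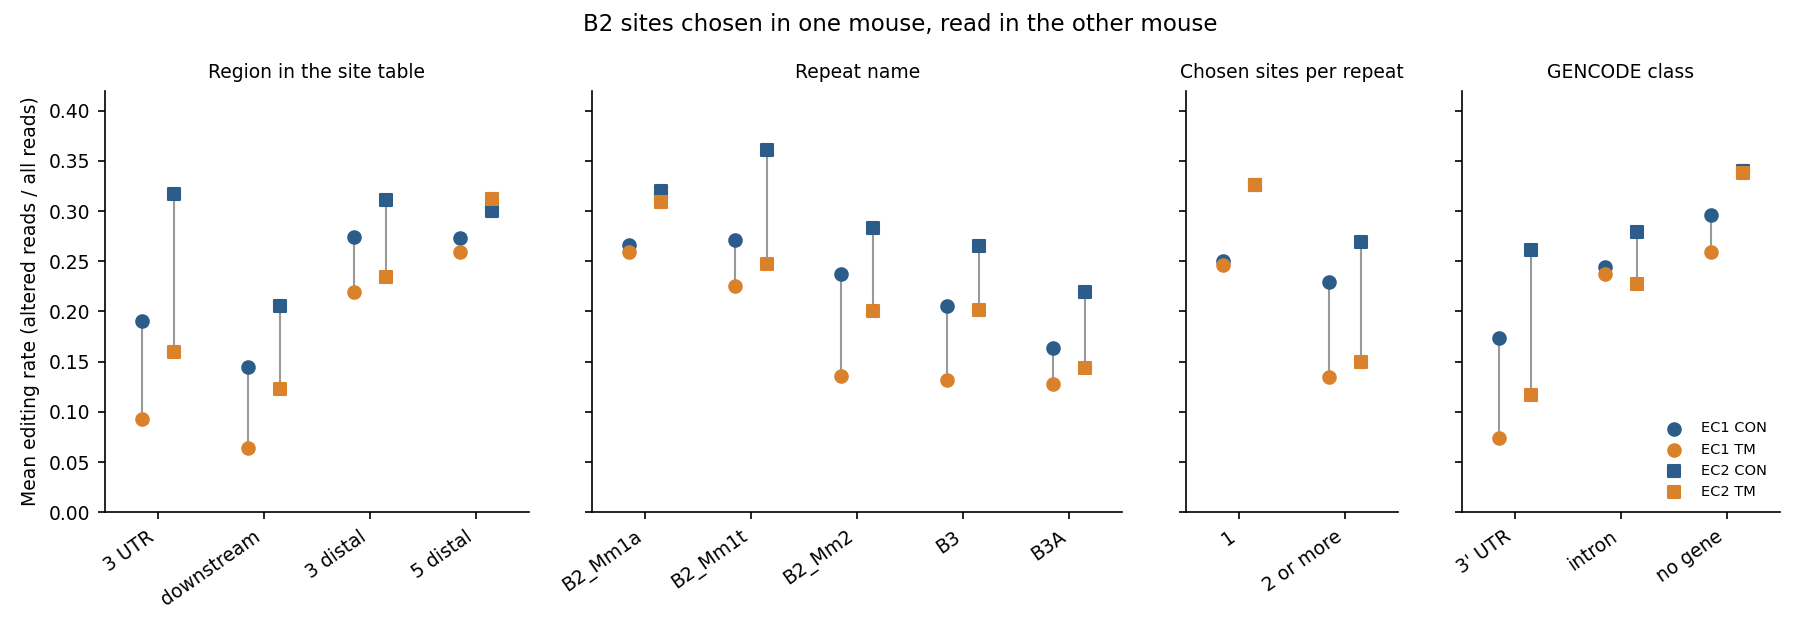
Mean editing rate (altered reads over all reads, y axis) of B2 sites chosen in one mouse and read in the other, by region, repeat name, number of chosen sites per repeat and GENCODE class (x axes), with CON in blue, TM in orange, EC1 as circles and EC2 as squares. The grey line joins CON and TM of 1 mouse. TM lies below CON in both mice in 3' UTRs and in repeats with 2 or more chosen sites, and next to CON for repeats with 1 chosen site.

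The number of sites that a repeat carried, counted only in the mouse that chose them, also separated the differences. Repeats with a lone chosen site had a difference of -0.00388 in EC1 (269 sites, 0.251 in CON and 0.247 in TM) and of -0.000795 in EC2 (195 sites, 0.326 in CON and 0.325 in TM). Repeats with 2 or more chosen sites had -0.0946 in EC1 (338 sites, 0.230 in CON and 0.135 in TM) and -0.119 in EC2 (232 sites, 0.2689 in CON and 0.1501 in TM). These classes differed by -0.0907 and -0.118 in the mice (exact p = 0.5, n = 2). With sites listed in both libraries only, lone sites had -0.0392 and -0.0311 and the others -0.0924 and -0.147.

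Within the regions and names the size of this contrast depended on the missing entries, so values with a rate of 0 for a missing entry are followed by those at sites listed in both libraries. Distal repeats with 2 or more chosen sites had -0.0887 in EC1 and -0.0847 in EC2 against 0.00373 and -0.000102 for distal lone sites, and at listed sites -0.0861 and -0.118 against -0.0458 and -0.0256. In 3' UTRs and downstream pieces these were -0.1003 and -0.157 against -0.0501 and -0.00511, and at listed sites -0.0968 and -0.172 against -0.0176 and -0.0566. Copies with several sites thus had the larger difference in both regions and both mice, with or without missing entries. By name, copies of B2_Mm2 with 2 or more chosen sites had -0.152 and -0.141 against 0.0119 and 0.0890, and at listed sites -0.136 and -0.164 against -0.0460 and 0.00387. B2_Mm1t had -0.0972 and -0.190 against 0.00551 and -0.0281, and at listed sites -0.0965 and -0.220 against -0.00366 and -0.0191. In B2_Mm1a the values were -0.0390 and -0.0547 against 0.0234 and 0.0238, but at listed sites -0.0938 and -0.0926 against -0.101 and -0.0368, so that the contrast turned in EC1. B3 had -0.0890 and -0.0981 against -0.0607 and -0.0394, and at listed sites -0.0826 and -0.124 against -0.0501 and -0.0402. B3A had -0.0465 and -0.0851 against -0.0151 and -0.0613, and at listed sites -0.0192 and -0.0979 against 0.0288 and -0.0589. In these 2 names copies with several sites had the more negative difference in both mice either way. Lone sites listed in both libraries were few in each name, from 6 for B3A to 20 for B3 in EC1. Leaving out the 4 repeats with the most sites, a check chosen after seeing the data, gave -0.0464 (534 sites) and -0.0512 (385 sites).

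**Figure D2:**
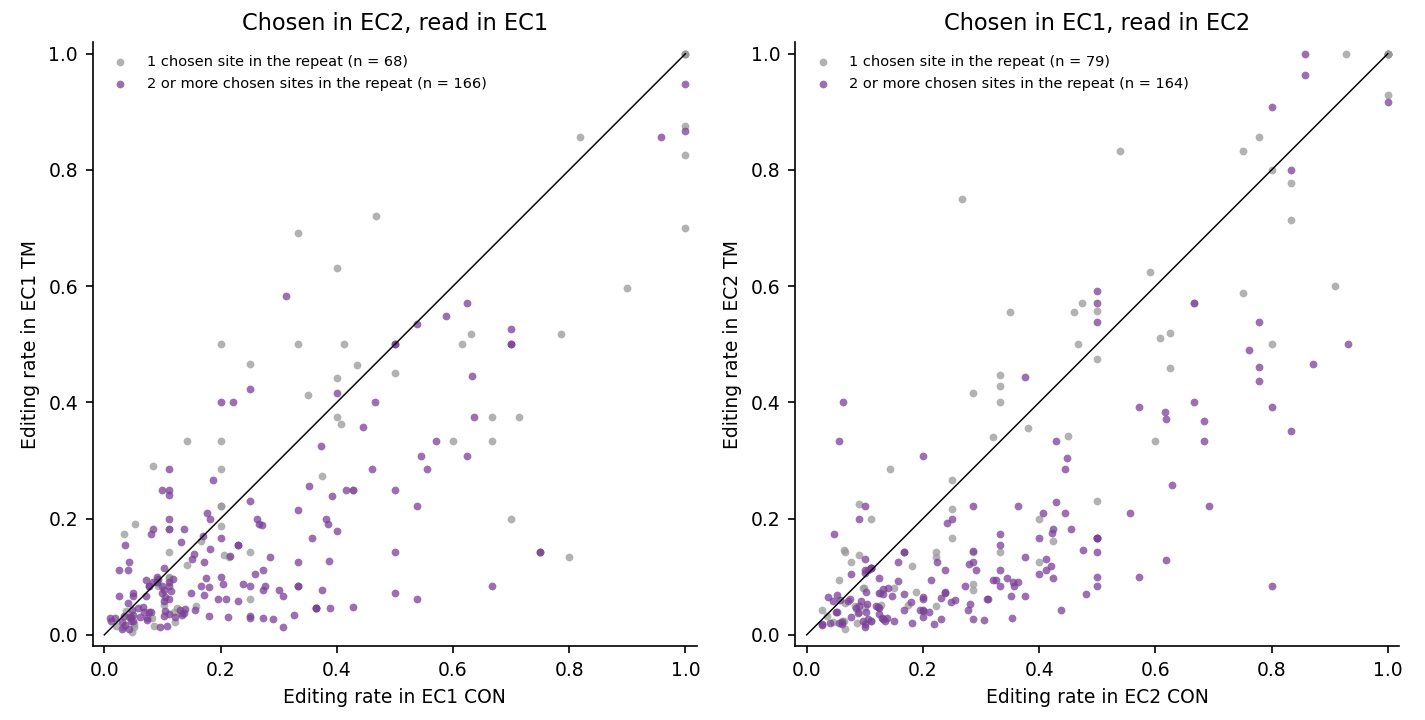
Editing rate in TM (y axis) against CON (x axis) at each site chosen in one mouse and listed with a depth of 5 or more in CON and TM of the other, EC1 on the left and EC2 on the right, with the line of equal rates. Most purple points, the sites of repeats with 2 or more chosen sites, lie below the line (127 of 166 in EC1 and 139 of 164 in EC2), and grey points are repeats with 1 chosen site.

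Neighbouring groups of sites were measured in the same way. Intronic B2 sites had differences of -0.00699 in EC1 and -0.0247 in EC2 (-0.0259 and -0.0550 at sites listed in both libraries), B1 sites of 3' UTRs had -0.0810 and -0.116, and sites outside repeats in the same 4 regions had -0.000450 and -0.00929. The B2 sites of all 4 regions differed by -0.0474 and -0.0402 from intronic B2 sites and by -0.0539 and -0.0556 from sites outside repeats. Their distance from B1 sites, 0.0266 and 0.0508, sets all regions against 3' UTRs, and at sites listed in both libraries it was 0.00333 and 0.00930. Within 3' UTRs the B2 differences given above, -0.0971 and -0.157, lay below those of B1, but started from higher CON means. B2 sites went from 0.190 in CON to 0.0930 in TM in EC1 and from 0.317 to 0.160 in EC2. B1 sites went from 0.149 to 0.0677 and from 0.197 to 0.0817. The larger differences thus do not show a larger relative fall in B2. Each of these contrasts of all regions had the same sign in both mice, with an exact p of 0.5.

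The regions of the table were compared with GENCODE vM21, which may differ from the annotation of the authors, site by site on the strand of the named gene. In GENCODE 258 of the 788 sites (32.7%) lay in 3' UTRs, 167 in introns, and 350 in no gene on that strand, of which 274 (34.8% of all) had no gene on either strand. Of the sites that the table called 3' UTR, 137 of 147 were in a GENCODE 3' UTR, and of the downstream sites 64 of 96. Of the 3' distal sites 29 of 279 and of the 5' distal sites 28 of 266 were also in a GENCODE 3' UTR, as for the Tmem245 copies above, while 90 and 64 were in introns.

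Read in the other mouse, the difference varied with the GENCODE class. Sites in a GENCODE 3' UTR went from 0.174 in CON to 0.0738 in TM in EC1 (229 sites) and from 0.261 to 0.117 in EC2 (155 sites). Sites in introns had differences of -0.00719 and -0.0509, and sites in no gene on the strand -0.0364 and -0.00222. At sites listed in both libraries the 3' UTR class had -0.0945 and -0.159, introns -0.0547 and -0.0783, and sites in no gene -0.0536 and -0.0355. The distal sites that lay in a GENCODE 3' UTR had -0.0987 (48 sites) and -0.119 (39 sites), and were higher in CON at 26 of 32 sites listed in both libraries in EC1 and at 30 of 32 in EC2. Of the 57 such sites 44 were named for 2 genes, 23 for Tmem245 and 21 for Sptssa, and without these, a check chosen after seeing the data, the differences were -0.125 (10 sites) and -0.0574 (11 sites). Distal sites in no gene had -0.0332 (240 sites) and -0.00553 (153 sites).

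An inverted copy lay closer to repeats with many sites. Among the B2 repeats that the table lists, 16.4% (5479 of 33360) had a B2 in the opposite orientation within 1000 bases. Of the 481 repeats described here 32.0% (154) did, with 26.8% of those with 1 site, 41.8% of those with 2 or 3, and 64.3% of those with 4 or more (18 of 28). By region the shares were 59.2% in 3' UTRs, 54.1% downstream, 24.6% in 3' distal and 28.5% in 5' distal regions. Only repeats with a listed site could be found as partners, so these shares also follow how much of a region was read. In the other mouse, sites with such a partner had differences of -0.0843 in EC1 and -0.0778 in EC2, and sites without one -0.0343 and -0.0548.

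**Figure D3:**
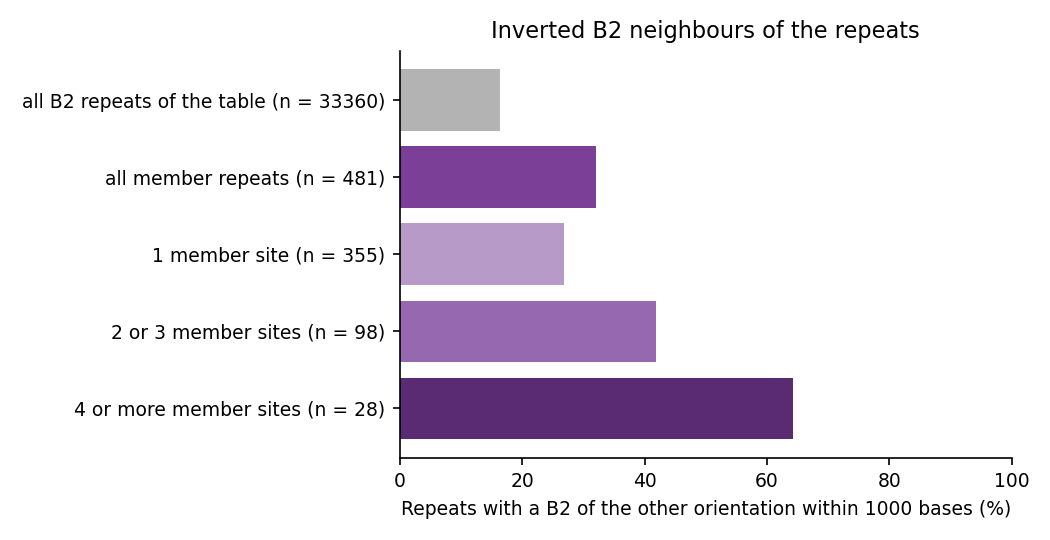
Share of B2 repeats (%, x axis) with another listed B2 of the opposite orientation within 1000 bases, for all B2 repeats of the table (grey) and for the repeats described here by their number of chosen sites (purple). The share is 16.4% for all B2 repeats and 64.3% for the 28 repeats with 4 or more sites.

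The neighbours of the altered adenosine could be read for the 271 sites that lay in a GENCODE exon, in 87 repeats. All 271 had A in the transcript sequence on the gene strand. The base before the site was G at 9.96% of sites and at 24.7% of the 3689 other adenosines of the same repeats, T at 31.4% against 19.7%, A at 32.5% against 23.8% and C at 26.2% against 31.9%. The base after it was G at 43.5% against 27.5%, T at 14.02% against 26.02%, A at 22.5% against 24.7% and C at 19.9% against 21.8%. The sites were thus poor in a preceding G and rich in a following G, both of which are known preferences of ADAR enzymes. Sites of 1 repeat share their sequence family, and no test was made.

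The 15 repeats with the most sites were next described one by one, with rates averaged over their sites. These rates also chose the sites, so the means over all sites are a description. The Tmem245 B2_Mm1t copy (chr4:56870118-56870305, bounds as deposited) held 23 sites, with a mean of 0.144 in CON and 0.0459 in TM of EC1, and 0.215 in CON and 0.0459 in TM of EC2. Its B2_Mm1a partner (chr4:56875682-56875875) held 20 sites, with 0.0829, 0.00482, 0.103 and 0.0353. In both copies both TM means lay below both CON means. Chosen in EC2 and read in EC1, the first copy had 0.147 in CON and 0.0442 in TM over 22 sites, and chosen in EC1 and read in EC2 it had 0.258 and 0.0581 over 17 sites. All 9 sites of the partner copy that were chosen in EC1 were higher in CON in EC2.

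The Rnf168 copies behaved in the same way, with higher means in CON. The B2_Mm1t copy (chr16:32300213-32300378, 19 sites) had means of 0.196 in CON and 0.107 in TM of EC1, and 0.314 in CON and 0.183 in TM of EC2. Its most edited site, at position 32300288, had 5 altered of 8 reads in CON and 4 of 13 in TM of EC1, and 27 of 29 in CON and 15 of 30 in TM of EC2. The B2_Mm2 copy (chr16:32299771-32299971, 14 sites) had means of 0.273, 0.0330, 0.288 and 0.125. Each copy was lower in TM in both mice, and the first kept a rate of 0.5 at its most edited site in EC2 TM.

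**Figure D4:**
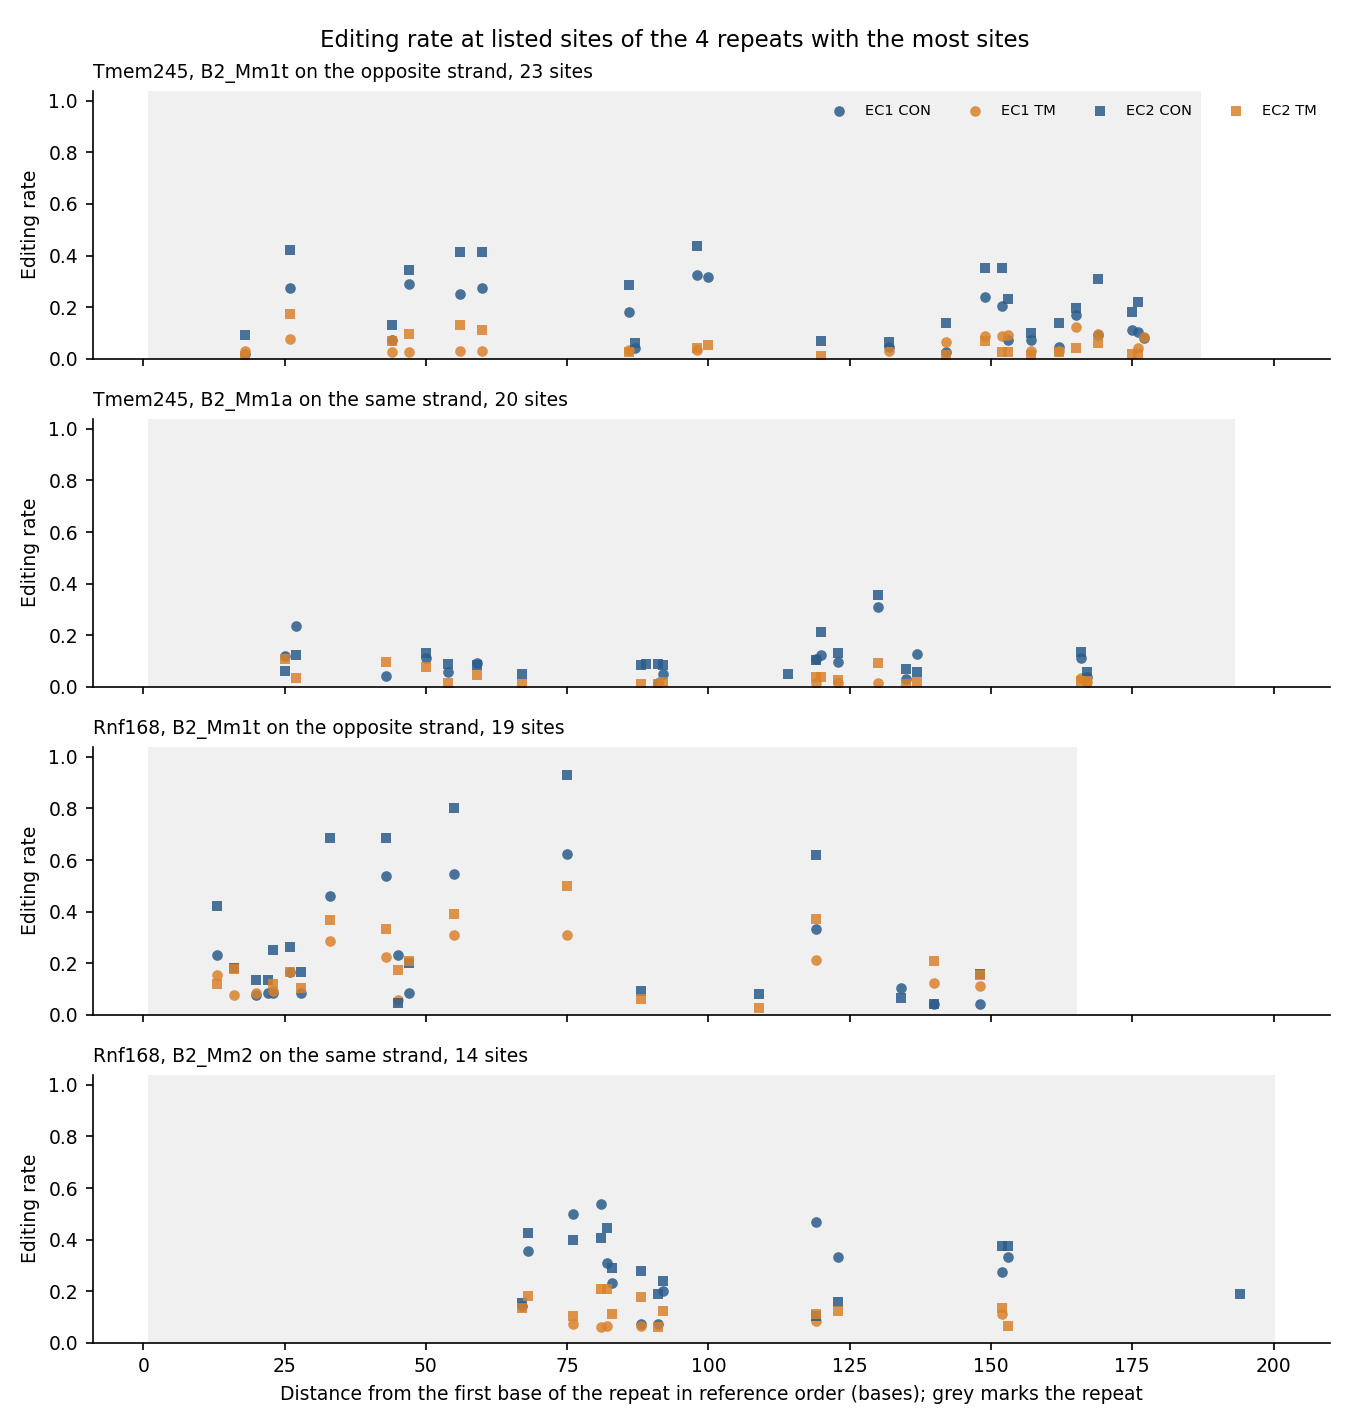
Editing rate (y axis) at each listed site along the 4 repeats with the most sites, by distance in bases from the start of the repeat in reference order (x axis), with CON in blue, TM in orange, EC1 as circles and EC2 as squares, and the repeat in grey. Blue symbols lie above the orange ones of the same mouse at most positions, and the Rnf168 B2_Mm1t copy reaches the largest rate, 0.931 in EC2 CON.

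Among the other 11 repeats, the 2 Jmjd4 copies had means of 0.255, 0.0601, 0.378 and 0.0966 (8 sites) and of 0.371, 0.126, 0.296 and 0.0891 (7 sites) for CON and TM of EC1, then CON and TM of EC2. Tmem69, a membrane protein gene, had a B2_Mm2 copy with 9 sites at 0.344, 0.0694, 0.579 and 0.189. Psma3, a subunit of the proteasome core, had a B3 copy with 7 downstream sites at 0.220, 0.0512, 0.336 and 0.0878. In these 4 copies both TM means lay below both CON means.

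Copies named for Sptssa as 5' distal, which GENCODE places in the 3' UTR of Eapp, had 0.119, 0.0865, 0.108 and 0.0362 (8 sites) and 0.119, 0.0104, 0.272 and 0.0253 (8 sites). A copy named for Fa2h, in no GENCODE gene, had 0.215, 0.120, 0.371 and 0.105 (8 sites). The means of these 3 were also lower in TM in each mouse. All 8 sites of the second Sptssa copy passed in EC2 CON alone, so its fall there follows from the choice. EC1 listed 4 of them in CON and 1 in TM. The Fa2h sites listed in CON had median depths of 7 and 5 reads. There 0 passed in EC1 and 1 in EC2, while 5 passed in each TM library. At its sites listed in both libraries of the mouse that had not chosen them, CON was higher at 1 and lower at 2 in EC1, and higher at 2 in EC2. The copy named for Arrdc2 had means of 0.192, 0.188, 0.361 and 0.180 (8 sites), lower in TM in each mouse but by little in EC1. All 8 sites passed in EC2 CON, which thus chose them. EC1 listed only 3 of them in CON and 2 in TM, at median depths of 2 and 2.5 reads. The 1 site chosen in EC1 was higher in TM in EC2, with 0.35 in CON and 0.556 in TM. In the remaining 3 the means over all sites differed in direction between the mice. The copy named for Eef1g had 0.1003, 0.102, 0.141 and 0.0289 (7 sites). The Rwdd2b B3A copy had 0.1001, 0.121, 0.120 and 0.0634 (7 sites), and the second Tmem69 copy had 0.0577, 0.118, 0.485 and 0.0110 (7 sites). Over all their sites, TM was above CON in EC1 and below it in EC2 in all 3. For Eef1g, the mean of the 5 sites chosen in EC2 was lower in TM in EC1, with 0.126 in CON and 0.112 in TM. For Rwdd2b, the mean of the 5 sites chosen in EC2 was higher in TM in EC1, with 0.0921 in CON and 0.140 in TM. Its 7 sites chosen in EC1 had a lower mean in TM in EC2, with 0.120 and 0.0634. The 7 sites of the second Tmem69 copy passed in EC2 CON and in no other library, so its fall in EC2 follows from the choice. EC1 had no part in choosing them, and its mean was higher in TM, with 0.0577 in CON and 0.118 in TM. Of all 28 repeats with 4 or more sites, the mean was lower in TM in 23 in EC1, in 26 in EC2 and in 22 in both. Of those with 4 or more sites chosen in EC2, 21 of 24 were lower in TM in EC1, and of those chosen in EC1, 16 of 18 were lower in TM in EC2.

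Reads at single sites were then compared between CON and TM of the mouse that had not chosen the site, with Fisher's exact test on reads, two-sided, and Benjamini-Hochberg adjustment over all sites of the table tested in that mouse. This compares 2 libraries, not conditions, and covers counting error only. In EC1 2 of 234 tested sites were lower in TM (0.855%), beside 0.132% of all 45320 sites tested and 0.686% of those that pass in the other mouse. In EC2 17 of 243 were lower in TM (6.996%), beside 0.339% of all 47499 and 1.92% of those that pass in the other mouse. No site was called higher in TM in either mouse, where 0.00883% of all sites and 0.0381% of those passing in the other mouse were called in EC1, and 0.00842% and 0.0387% in EC2. At an unadjusted p under 0.05, 27 sites (11.5%) were lower in EC1 and 55 (22.6%) in EC2, beside 1.28% and 2.12% of all sites tested. The sites counted here must pass in the other mouse, whereas the sites behind these shares need not, so the sets are unlike. The share at that p among all sites that pass in the other mouse is not given here. Higher at that p were 1 site in EC1 and 1 in EC2 (0.427% and 0.412%), beside 0.391% and 0.354%. The called sites were 17 positions in 8 repeats of 6 genes, with 10 downstream, 5 in 3' distal regions and 2 in 3' UTRs, and 2 positions were called in both mice.

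The positions called in both mice were in Tmem245 and Lactb2, an endoribonuclease of mitochondria. At Tmem245 position 56875812 there were 20 altered of 65 reads in CON and 1 of 72 in TM of EC1, and 27 of 76 in CON and 10 of 109 in TM of EC2, with an adjusted p of 0.00173 in EC1 and 0.00943 in EC2 (Fisher's exact test). At Lactb2 position 13625015 there were 41 of 106, 16 of 126, 50 of 105 and 35 of 240, with an adjusted p of 0.00732 and 4.09e-07 (Fisher's exact test). At both, the TM rates lay well below the CON rates without overlap. The 25 bases around the Lactb2 position, on the minus strand at chr1:13625003-13625027, show how closely its edited adenosines are spaced.
Lactb2 B2_Mm2: gctccgcggttgAgAgcAAtgActg
The first capital of this stretch is position 13625015, and the pair of adjacent capitals holds the next sites named. The smallest p of all was 5 bases on along the transcript, at position 13625010, with 27 of 108 reads altered in CON and 11 of 131 in TM of EC1, and 51 of 106 in CON and 17 of 241 in TM of EC2 (adjusted p = 7.56e-14 in EC2, Fisher's exact test). Its near neighbour at 13625009 kept more editing, with 67 of 106, 58 of 130, 66 of 107 and 93 of 242 (adjusted p = 0.0234 in EC2, Fisher's exact test). Sites a base apart in the same copy therefore differed in how much editing TM left.

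The other genes with called sites were called in EC2 alone. Emc1, a subunit of a membrane protein insertase of the endoplasmic reticulum, had 23 of 85 altered reads in CON and 10 of 53 in TM of EC1, and 36 of 85 in CON and 12 of 122 in TM of EC2 (adjusted p = 6.85e-05 in EC2, Fisher's exact test). The Psma3 site had 9 of 21, 1 of 21, 21 of 34 and 5 of 39 (adjusted p = 0.00807 in EC2, Fisher's exact test). At Ggps1, the synthase of geranylgeranyl diphosphate, there were 13 of 107, 5 of 165, 29 of 167 and 15 of 293 (adjusted p = 0.0165 in EC2, Fisher's exact test). Klhl24, an adaptor of a ubiquitin ligase, had 73 of 196, 75 of 231, 131 of 292 and 113 of 372 (adjusted p = 0.0407 in EC2, Fisher's exact test). The rate was also lower in TM than in CON in EC1 at all 4, from 0.372 in CON and 0.325 in TM at Klhl24 to 0.429 and 0.0476 at Psma3. The stretches around these sites are shown to give their settings, each centred on the called adenosine, at chr4:139378275-139378299 (plus strand), chr12:70995198-70995222 (plus), chr13:14052045-14052069 (minus) and chr16:20123736-20123760 (plus).
Emc1 B3: ttgtgaccatgtAggtcctgggaac
Psma3 B3: acatgtcctcttAAccActgagccg
Ggps1 B3: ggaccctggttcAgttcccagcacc
Klhl24 B3: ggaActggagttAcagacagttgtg
All 4 are B3 copies, and none has G before the called adenosine.

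The best-read sites show the precision that depth allowed. In each region the 3 sites listed in all 4 libraries with the most reads were taken. Their 95% Wilson intervals cover counting error only, and some of these 12 sites are described. Of the 12, 9 were lower in TM in both mice and 3 in 1 mouse only. The Klhl24 site above had 37.2% (30.8 to 44.2) in CON and 32.5% (26.8 to 38.8) in TM of EC1, and 44.9% (39.3 to 50.6) in CON and 30.4% (25.9 to 35.2) in TM of EC2. Only in EC2 were its intervals apart. A 3' distal site named for Rps12, a ribosomal protein gene, had 15.8% (10.2 to 23.6), 4.94% (2.85 to 8.43), 12.9% (9.21 to 17.7) and 5.19% (3.52 to 7.61), with CON above TM and no overlap of the intervals in either mouse. A 3' distal site named for Hspa4l, a heat shock protein gene, had 21.6% (15.05 to 29.9), 13.6% (7.34 to 23.9), 24.2% (18.2 to 31.5) and 19.3% (12.2 to 29.0), whose intervals overlapped. The 5' distal site named for Gpr157, a G protein-coupled receptor gene, had 13.2% (8.14 to 20.6), 3.70% (1.27 to 10.3), 9.80% (4.26 to 21.0) and 8.05% (3.95 to 15.7), again with overlap. In the downstream piece all 3 sites were of Ggps1. The most read, at 14052057, had 12.1% (7.24 to 19.7), 3.03% (1.30 to 6.90), 17.4% (12.4 to 23.8) and 5.12% (3.13 to 8.27). Its intervals were apart in both mice, with CON above TM. The other 2 were higher in TM in EC1 and lower in EC2. That at 14052089 had 1.042% (0.184 to 5.67), 2.82% (1.10 to 7.02), 7.86% (4.44 to 13.5) and 2.72% (1.33 to 5.51), with intervals that overlap in both mice. That at 14052036 had 1.08% (0.190 to 5.84), 2.36% (0.807 to 6.72), 6.57% (3.49 to 12.01) and 0.847% (0.233 to 3.04), with intervals that overlap in EC1 only. Over the 101 sites with 20 or more reads in all 4 libraries, the rate was lower in TM in both mice at 77 and higher in both at 2, and at 70 both TM rates lay below both CON rates (76.2%, 1.98% and 69.3%). Of all 2673 passing sites of that depth the shares were 45.9%, 16.8% and 37.1%, and since these rates also chose the sites, the counts are a description.

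**Figure D5:**
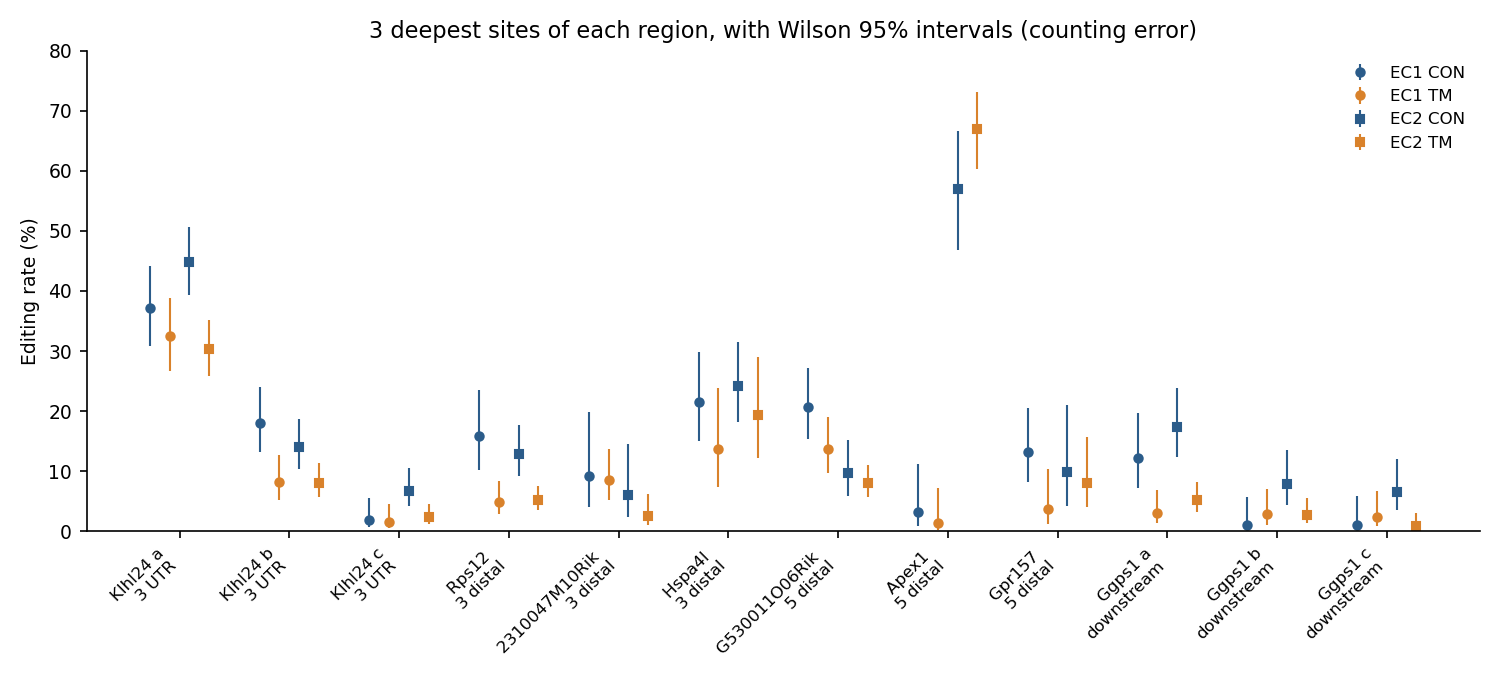
Editing rate (%, y axis) in the 4 libraries at the 3 most read sites of each region (x axis), with CON in blue, TM in orange, EC1 as circles and EC2 as squares, and 95% Wilson intervals of counting error as bars. The intervals of CON and TM are apart in both mice at the Rps12 site and at the Ggps1 site at 14052057. The Apex1 site separates the mice instead, with 57.0% and 67.0% in EC2 and 3.28% and 1.35% in EC1.

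The study's own criterion asks for a rate at least 0.05 higher in one library of a mouse than in the other, with at least 5 reads, 3 altered reads and a rate of at most 0.95 in the higher one. By it, 225 of 427 sites (52.7%) were higher in CON in EC1 and 328 of 607 (54.0%) in EC2, beside 43.5% and 37.2% of all sites that pass in a library of the mouse. Higher in TM were 95 (22.2%) and 141 (23.2%), beside 28.6% and 33.4%. These rates also chose the sites, so the shares are a description. Higher in CON in both mice were 95 sites (12.1% of 788) and higher in TM in both 10 (1.27%), while 30 (3.81%) went opposite ways, beside 7.35%, 3.92% and 6.52% of all 24200 passing sites. In 3' UTRs 60 of 81 sites (74.1%) were higher in CON in EC1 and 108 of 133 (81.2%) in EC2, and downstream 72.7% and 70.1%. In 3' distal regions 40.4% and 47.0% were higher in CON, and in 5' distal regions 45.9% and 36.4%. Not listed at all in the lower library were 82 and 95 of the sites higher in CON, and 46 of the 95 and 80 of the 141 higher in TM, for which the lower rate was thus a missing entry.

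Depth at a site counts reads of the RNA that carries it, and fewer cells and less RNA per cell cannot be told apart in such libraries. Of the 322 sites listed in all 4 libraries, scaled by library total, 5 were more than 4-fold deeper in TM in both mice and 0 more than 4-fold shallower in both. The share over all sites of the table is not given here, so these counts are a description. The sites named next were picked after their depths were seen. The downstream site of Mlkl, a kinase-like effector of necroptosis, at position 111311618 on chromosome 8, had 21 reads in CON and 179 in TM of EC1, and 29 in CON and 321 in TM of EC2, or log2 depth ratios of 3.11 and 2.94. Its altered reads were few, 1, 1, 3 and 3, for rates of 0.0476, 0.00559, 0.103 and 0.00935, and it passed in EC2 CON alone. A site in an intron of Rnf213, a large ubiquitin ligase, had 12, 122, 8 and 160 reads with rates of 0.5, 0.451, 0.5 and 0.475. Rates at this site were alike in all 4 libraries, with few reads in CON, while its depth was not. Other Rnf213 intron sites that were deeper in TM varied more. That at 119444581 had 10, 87, 6 and 88 reads with rates of 0.9, 0.598, 0.5 and 0.557. That at 119432037 had 15, 77, 8 and 75 reads with rates of 0.4, 0.442, 0.625 and 0.52. The 3' UTR site of Apobec3, a cytidine deaminase of antiviral defence, had 12, 36, 10 and 47 reads with rates of 0.333, 0.0833, 0.1 and 0.106.

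Gene counts had no part in choosing the sites and were compared with edgeR over all genes. What they measure is uncertain. Counts on genes were 0.823% to 0.858% of the total of each table. The study's methods give default settings for all steps, under which HTSeq counts a read only on the strand of the gene, and whether the kit reads that strand or the opposite one is not given in the sources used here. Of the 16578 genes with a count that were found in GENCODE, 30.6% share exon bases with a gene on the opposite strand, whereas 96 of the 100 genes with the most counts do, and 75.7% of all counts fell on such genes. Reads from the opposite strand can therefore stand behind a count, and the values below are counts under a gene name, not shown to be levels of its transcript. The targeted gene Adar had 9 counts in CON and 47 in TM of EC1, and 16 in CON and 71 in TM of EC2, higher in both TM libraries, with a log2 fold change of 1.87 (SE 0.45, adjusted p = 0.00609, edgeR). The call was lost with DESeq2 and without EC1 CON. Counts over the whole gene do not check the deletion of a few exons, and the gene shares exon bases with Chrnb2 on the opposite strand. Library totals on genes were 1095488 and 1096152 in EC1 and 1222301 and 1778732 in EC2. Of 7899 genes tested, 347 (4.39%) were higher and 265 (3.35%) lower in TM. These shares are for edgeR without a block, and adjusted shares of all genes under DESeq2 or the block are not given here.

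Of the 65 host genes of 3' UTR and downstream sites, 33 had enough counts to be tested, 0 were higher in TM and 1 was lower, with a median log2 fold change of -0.046 beside 0.0017 over all genes. At an unadjusted p under 0.05 edgeR had 4 higher and 2 lower (18.2% of the 33), a share near the 20.5% of all genes tested, and DESeq2 called 0 and 1. With the mouse as a block 2 were higher, Ccar1 and H2-T24. The gene that fell was Mydgf, a secreted growth factor, with 164 counts in CON and 62 in TM of EC1, and 211 in CON and 92 in TM of EC2 and a log2 fold change of -1.64 (SE 0.32, adjusted p = 0.000685, edgeR). Its TM counts lay below its CON counts in both mice. Some hosts of copies with many sites had few counts, while others did not, such as Slc35e2 (255, 218, 163 and 277) and Jmjd4 below. Tmem245 had 2, 3, 10 and 16, Rnf168 had 4, 5, 9 and 26, Lactb2 had 1, 0, 5 and 6, and none of these was tested. Jmjd4, with 78, 126, 105 and 157 counts, had a log2 fold change of 0.29 (SE 0.32, adjusted p = 0.680, edgeR).

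Of the 339 genes that name a distal site, 182 were tested. Of these 11 (6.04%) rose and 6 (3.30%) fell, beside 4.39% and 3.35% of all genes tested. Their median log2 fold change was -0.0050. With the mouse as a block in edgeR 14 were higher and 14 lower, and DESeq2 called 8 higher and 3 lower. The largest rise was that of Gm4841, with 25, 952, 5 and 912 counts in the EC1 and then the EC2 pair, CON first, and a log2 fold change of 5.67 (SE 0.45, adjusted p = 2.29e-10, edgeR). Next were Vezf1, a zinc finger protein of endothelial cells with at most 3 counts in CON and hence at least 5.25-fold higher, Mir1932 (8, 33, 3 and 52 counts), the helicase gene Helz2 (12, 78, 21 and 116) and Fam171a2 (47, 107, 34 and 210). The largest falls were those of Dennd2a (10, 2, 26 and 7), 2810410L24Rik (35, 7, 45 and 18), the aggrecan protease gene Adamts4 (267, 85, 343 and 132), Mydgf above among the near hosts, and Acap3 (94, 36, 77 and 37). All of these kept their sign when any library was left out, but Vezf1 lost its call with DESeq2 and without any 1 of the 4 libraries, Dennd2a with DESeq2 and without EC1 TM, EC2 CON or EC2 TM, 2810410L24Rik with DESeq2, Fam171a2 without EC2 CON and Acap3 without EC2 TM. A gene that only names a distal site need not be transcribed through it. Sites named for Helz2 lay in introns of Gmeb2, and those named for Mir1932 in introns of Rnf213. Of the 18 called genes 1 was not found in GENCODE by its symbol, and 6 of the others share exon bases with a gene on the opposite strand.

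The genes of double-stranded RNA editing and sensing were read as a list of 23, of which 16 were tested. Of these 6 (37.5%) rose and 0 fell, beside 4.39% and 3.35% of all genes tested, with a median log2 fold change of 0.47. At an unadjusted p under 0.05 edgeR had 7 higher and 3 lower, beside 10.4% and 10.1% of all genes tested. DESeq2 called 5 higher and 0 lower. With the mouse as a block in edgeR 7 were higher and 1 lower, the added ones being Eif2ak2, the kinase PKR (120, 225, 93 and 266 counts, adjusted p = 0.00213 with the block and 0.0747 without it, edgeR), and Dhx58, a relative of MDA-5 (49, 27, 63 and 35, adjusted p = 0.0141 and 0.0527, edgeR). Besides Adar, the risers were Ifih1, which encodes MDA-5 (2, 36, 0 and 53 counts), the oligoadenylate synthetase family members Oas1a (0, 12, 0 and 31, with too few counts to be tested without EC2 TM) and Oasl1 (2, 21, 0 and 45), Zbp1, a sensor of Z-form nucleic acid (0, 19, 0 and 48), and Tlr3, an endosomal receptor (2, 34, 6 and 29). Against a floor of 3 counts per library these were at least 12.1-fold higher for Ifih1, 5.46-fold for Oas1a, 8.56-fold for Oasl1 and 8.53-fold for Zbp1, and Tlr3 had a log2 fold change of 2.65 (SE 0.64, adjusted p = 0.00666, edgeR) and lost its call with DESeq2 and without EC1 CON or EC1 TM. Adarb1, the gene of the other editing enzyme, had 24, 13, 27 and 21 counts and a log2 fold change of -0.95 (SE 0.48, adjusted p = 0.267, edgeR).

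The label of the cells was read against markers. The 12 endothelial markers summed to 1826, 1711, 1617 and 2845 counts, led by Cdh5 (491, 454, 442 and 869), with 10 tested, 0 higher and 1 lower in TM. The one that fell was Cldn5, a tight junction protein (47, 23, 57 and 22 counts, log2 fold change -1.52, SE 0.41, adjusted p = 0.0176, edgeR), a call lost with DESeq2 and without EC2 CON or EC2 TM, and Vwf had 2, 0, 2 and 0. With the mouse as a block in edgeR 2 were lower, the second being Tie1, a receptor kinase (81, 44, 95 and 80 counts, adjusted p = 0.0251 with the block and 0.111 without it). The 8 markers of fibroblasts and smooth muscle summed to 616, 610, 622 and 850, led by Tagln (548, 534, 553 and 761), while Col1a2 had at most 2 counts in a library. The 8 leukocyte markers summed to 77, 49, 51 and 97, led by Cd79a in EC1 CON and by Cd68 in EC2 TM, with Lyz2 and Cd3e at 0 throughout, and the 7 epithelial markers to 24, 22, 15 and 29, led by Sftpb, with Epcam at 0 in 3 libraries. Of the 7 tested markers of other cell types 0 were called by edgeR or DESeq2 and 0 had an unadjusted p under 0.05, and their part in the rates was not tested.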

How the data were processed

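Per the labels and the study's methods, the authors trimmed reads with Trimmomatic 0.38, aligned them to mm10 (GRCm38) with STAR 2.6.1a, counted them per gene with HTSeq 0.11.2 and called variants per library with BCFtools mpileup, of which A-to-G was kept for genes of the plus strand and T-to-C for those of the minus strand, annotated with gene regions and RepeatMasker repeats. Tool versions and builds come from the submitters' processing notes. The authors deposited raw gene counts, read counts per base at each site, and the editing rate, a fraction (altered over all reads) set to 0 at sites a library does not list. Site columns were given to libraries by their names and by equality of their values with the site list of the study's supplement, and 0 columns of per-sample values were left unused. Summary rows of the count tables were kept out of library sizes and tests, which left 0.823% to 0.858% of the totals, counted under default settings per the study's methods.

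The sites and gene lists were chosen with earlier results of these data known. Named were the 15 repeats with the most sites, the 3 most read sites per region, the sites called on reads with the smallest p, the 5 largest rises and falls among called hosts, and called genes of the double-stranded RNA list. Differences between groups of sites used exact sign permutations over mice, reads at sites Fisher's exact test, and gene counts the edgeR 4.0.16 quasi-likelihood test (filterByExpr, TMM, condition only), with Benjamini-Hochberg adjustment at 0.05. Alternatives included DESeq2 1.42.0, the mouse as a block, other limits on reads, and each library left out. CON and TM of a mouse share that mouse, and their deviations from the group means correlated with r = 0.155 over genes. The edgeR fit and Fisher's exact test on reads were each tested on simulated data with known changes. Inverted copies were aligned with Biopython 1.88, and positions and sequences came from GENCODE vM21. Other tools were R 4.3.3, Python 3.11.15, numpy 2.4.6, pandas 2.3.3, scipy 1.17.1, statsmodels 0.14.6 and matplotlib 3.10.9. Sequence outside annotated exons and sequence of chromosome 18 were not analysed here.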

Additional observations from a re-analysis of the deposited data

How the results depend on the processing

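Of 89 recomputed values 68 were counts and 21 were differences of rates, and all 21 differences stayed below 0. Raising the depth minimum to 20 reads left 338 sites, and asking for 5 altered reads left 352. The mean TM minus CON difference of all sites, -0.0517, was -0.0672 with at least 10 reads, -0.0715 with 5 altered reads, -0.0868 over sites listed in both libraries, and -0.0131 with each repeat weighted equally. Without either mouse it ran from -0.0619 to -0.0416, and in the mouse that had not chosen the sites from -0.0649 to -0.0544. That last difference, -0.0596, was -0.0248 with each repeat weighted equally and -0.0933 over sites listed in both libraries, and kept its sign under every setting tried.

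The counts by the rate difference of 0.05 followed the limits. Higher in CON were 90 in EC1 and 161 in EC2 with 20 reads, 100 and 169 with 5 altered reads, and 137 in EC1 when listed in both libraries. Higher in TM were 54 and 74 with 10 reads, 27 and 47 with 20 reads, 39 and 50 with 5 altered reads, and 32 and 43 when listed in both. Without adjustment Fisher's exact test called 27 sites lower and 1 higher in EC1, and 55 and 1 in EC2.

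For the rate read in the other mouse, permuting all 4 libraries without the replicate block left the difference at -0.0596, with an exact p of 0.333, the smallest possible. Under a replicate block for the mouse, edgeR had 2 near hosts higher and 1 lower in TM, and 14 distal names were higher and 14 lower. With no filter on low counts 1 near host was higher, and DESeq2 called 3 distal names lower. Leaving out 1 library each gave 0 to 2 near hosts higher, 7 to 10 distal names higher and 3 to 7 lower, the lowest of these without EC2 TM. The cause of these shifts was not tested.

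Depth limits single sites, with a median of 15 to 19 reads where a site passes, and only 33 of 65 near hosts and 182 of 339 distal names had the counts to be tested.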

Other observations

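At a few well-read sites the rate separated the mice rather than the treatments. With at least 20 reads in all 4 libraries and both rates of one mouse at least 0.2 above both of the other, limits set after seeing the data, 2 of 101 sites stood out. The share among all passing sites of that depth is not given here. At position 50877428 on chromosome 14, in a B2_Mm1t copy named for Apex1, a DNA repair endonuclease, there were 2 altered of 61 reads in EC1 CON, 1 of 74 in EC1 TM, 53 of 93 in EC2 CON and 138 of 206 in EC2 TM. At position 25249164 on chromosome 4, in a B3 copy of the 3' UTR of Ufl1, the ligase of the ubiquitin-like protein UFM1, there were 10 of 22, 13 of 33, 27 of 27 and 32 of 32.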
